A study of Mus musculus with 12 samples.

Results

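Heat-shock and cold-inducible genes were followed in the medial prefrontal cortex (PFC) of mice raised with or without a microbiota. They were the 10 genes Rbm3, Cirbp, Hspa1a, Hspa1b, Hspa5, Hspa8, Hsph1, Dnajb1, Hsp90aa1 and Hspb1 among 41388 genes in the count table, chosen by name as RNA-binding proteins induced by cold or as chaperones of the heat-shock families. The samples were male Swiss Webster mice aged 10 weeks in 3 groups of 4 libraries. Conventional mice (CON) were housed in the standard animal unit. Germ-free mice (GF) came from other breeding pairs and stayed in isolators. Breeding stock, housing and the lack of microbes therefore cannot be told apart in GF relative to CON. Colonized germ-free mice (exGF) were moved on postnatal day 21 from isolators to the standard unit beside CON mice, where microbes from the surroundings colonized them. In GF relative to exGF, housing and microbes likewise cannot be told apart. In exGF relative to CON, the early lack of microbes cannot be told apart from breeding stock, early housing and the move. Equal amounts of polyA-selected RNA of 2 to 3 animals, drawn at random within a group, entered each library, and errors are therefore those between pools. The 4 exGF columns of the table carry the names GFR1 to GFR4 and were not matched to single samples.

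Cells answer a rise in temperature or misfolded protein through the transcription factor HSF1, which binds heat-shock elements before the genes of inducible chaperones such as Hspa1a, Hspa1b, Dnajb1 and Hspb1. Mild cooling instead raises RBM3 and CIRBP, a pair of small RNA-binding proteins, and both are known to follow the daily rhythm of body temperature. Misfolded protein in the endoplasmic reticulum induces Hspa5 through another sequence, the ER stress element.

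Counts on genes ran from 22757169 to 29134760 in CON, from 13280926 (GF replicate 1) to 23465074 in GF and from 22702599 to 28615407 in exGF. No neuronal marker of 8 had a count of 0 in any library. All 8 lay above 0 on the log2 scale in GF relative to CON, and 0 were called. By edgeR 2 of the 8 had an unadjusted p under 0.05, where 8.69% of all genes did in either direction. The sums of the neuronal markers were 7003 to 8029 CPM (read counts scaled to a fixed library size) in CON, 8063 to 9124 CPM in GF and 7730 to 9098 CPM in exGF. Of all genes 0.251% were called in GF relative to CON and 0.0696% in exGF relative to CON, in either direction. Of 8 mature oligodendrocyte markers 6 were called higher in GF than in CON, where summed levels ran from 3336 to 5613 CPM against 2172 to 2659 CPM. Of 6 meningeal markers 2 were called lower in GF, with sums of 100.03 to 136 CPM against 156 to 215 CPM. Of 7 microglial markers 1 was called lower in GF and 0 in exGF, where 6 were lower at an unadjusted p under 0.05 by edgeR (5.33% of all genes had such a p in either direction). The sums of the microglial markers were 367 to 426 CPM in CON, 318 to 359.6 CPM in GF and 307 to 330.3 CPM in exGF. The part of these differences in the values of the 10 genes was not tested. In whole tissue, fewer cells of a type and less RNA per cell cannot be told apart.

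The sequence of the Hsp70 pair is shown first, because it sets how far their counts can be read. Hspa1a and Hspa1b encode near-identical copies of the inducible Hsp70 chaperone and lie side by side on chromosome 17. Over 1923 aligned coding bases they differed at 8. Hspa1b has 1926 coding bases without the stop codon, which leaves a gap of 3 bases in Hspa1a. Of their coding windows of 100 bases, the length of a read, 67.9% were identical, and the longest identical run was 638 bases. The stretch of 90 coding bases (1327 to 1416 of each coding sequence, from GENCODE transcripts on GRCm38) is the one with most differences, and capitals mark the 2 bases that differ.
Hspa1a: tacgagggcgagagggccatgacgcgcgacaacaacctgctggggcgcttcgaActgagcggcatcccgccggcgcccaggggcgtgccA
Hspa1b: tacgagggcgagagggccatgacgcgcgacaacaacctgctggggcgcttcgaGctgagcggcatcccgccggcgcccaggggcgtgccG
A read pair that fits both copies was dropped by the authors' counting, so both genes were counted on the stretches that tell them apart, and their split is uncertain.

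The 250 bases before the start of transcription are shown for a cold-inducible gene, for heat-inducible genes and for the ER chaperone. RefSeq sequences of GRCm38 were at hand for 7 of the 10 genes (not for Rbm3, Hspa8 and Hsp90aa1), and both strands were searched. The heat-shock element was taken as GAANNTTCNNGAA or its shifted form, exactly or with any 1 letter free, the mild cold element as TCCCCGCC and the ER stress element as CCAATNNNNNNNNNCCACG. Capitals mark each match.
Cirbp, chr10:80167589-80167838 (+ strand): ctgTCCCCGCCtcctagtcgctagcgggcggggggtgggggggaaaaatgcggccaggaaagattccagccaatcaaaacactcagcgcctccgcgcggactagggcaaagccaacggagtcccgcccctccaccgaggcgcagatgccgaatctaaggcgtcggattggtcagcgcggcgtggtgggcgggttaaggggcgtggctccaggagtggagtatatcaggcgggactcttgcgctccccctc
Hspa1b, chr17:34959239-34959488 (- strand): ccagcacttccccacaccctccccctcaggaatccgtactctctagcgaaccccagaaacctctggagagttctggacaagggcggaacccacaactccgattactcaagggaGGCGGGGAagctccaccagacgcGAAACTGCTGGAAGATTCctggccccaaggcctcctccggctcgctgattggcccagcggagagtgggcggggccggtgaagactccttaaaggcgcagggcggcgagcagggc
Hsph1, chr5:149636316-149636565 (- strand): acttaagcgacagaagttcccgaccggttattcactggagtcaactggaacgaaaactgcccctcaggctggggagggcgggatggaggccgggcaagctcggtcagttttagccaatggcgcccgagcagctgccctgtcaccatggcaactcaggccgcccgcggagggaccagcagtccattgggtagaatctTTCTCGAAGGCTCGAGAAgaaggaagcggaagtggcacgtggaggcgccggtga
Hspa5, chr2:34771840-34772089 (+ strand): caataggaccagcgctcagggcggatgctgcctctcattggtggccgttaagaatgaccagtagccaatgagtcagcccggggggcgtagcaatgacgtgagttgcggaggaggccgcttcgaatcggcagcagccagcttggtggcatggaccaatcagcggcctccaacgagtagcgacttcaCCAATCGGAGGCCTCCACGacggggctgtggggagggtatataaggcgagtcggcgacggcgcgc
The Cirbp window shown held the mild cold element 247 bases before the start, a match found in 4.64% of 32851 windows. The window of a second Cirbp start, chr10:80167921-80168170, held none. Hspa1a and Hspa1b, whose windows differed at 3 of 250 bases, held it as well, 137 bases before the start. None of the 7 genes held an exact heat-shock element, which 0.466% of all windows had. With 1 letter free, where 6.08% of all windows matched, Hspa1a, Hspa1b, Hsph1 and Hspb1 held one, and Dnajb1 did not. In Hspa1a, Hspa1b and Hsph1 the capitals join overlapping matches of this kind. The Hspa5 window held an exact ER stress element 65 bases before the start, found in 0.113% of windows. A match is a run of letters and was not tested as a binding site.

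Levels were compared between genes as CPM per kb of exon, which allows for length. Hspa8, the constitutive Hsp70 chaperone of the cytosol, stood highest at 311 ± 23.3 CPM per kb (SD, n = 12 libraries), above 99.6% of 15936 genes. Hsp90aa1, an Hsp90 chaperone, followed at 260.0 ± 23.1 CPM per kb and lay below Hspa8 in all 12 libraries. Both levels can be too low, and not equally so, because of pseudogenes, as given below. Hspa5, the Hsp70 of the endoplasmic reticulum, had 71.7 ± 7.08 and Hsph1, an Hsp110 that recharges Hsp70 with ATP, had 56.1 ± 3.78 CPM per kb. These 4 chaperones were thus among the more abundant transcripts of the PFC.

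Cirbp with 19.0 ± 1.92 and Dnajb1, a J-domain partner of Hsp70, with 18.4 ± 2.32 CPM per kb were neighbours whose order was not fixed, with Cirbp above in 7 of 12 libraries. Rbm3 had 11.7 ± 1.61 CPM per kb. Hspb1, a small heat-shock protein, had 3.88 ± 1.37 CPM per kb, above 48.7% of genes. The inducible Hsp70 pair was lowest, with Hspa1b at 1.64 ± 0.528 and Hspa1a at 0.822 ± 0.148 CPM per kb, above 31.6% and 20.8% of genes. Hspa1b lay above Hspa1a in 11 of 12 libraries, where the counts of both genes are incomplete, as given below. The other neighbours in this order kept it in all 12 libraries.

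**Figure D1:**
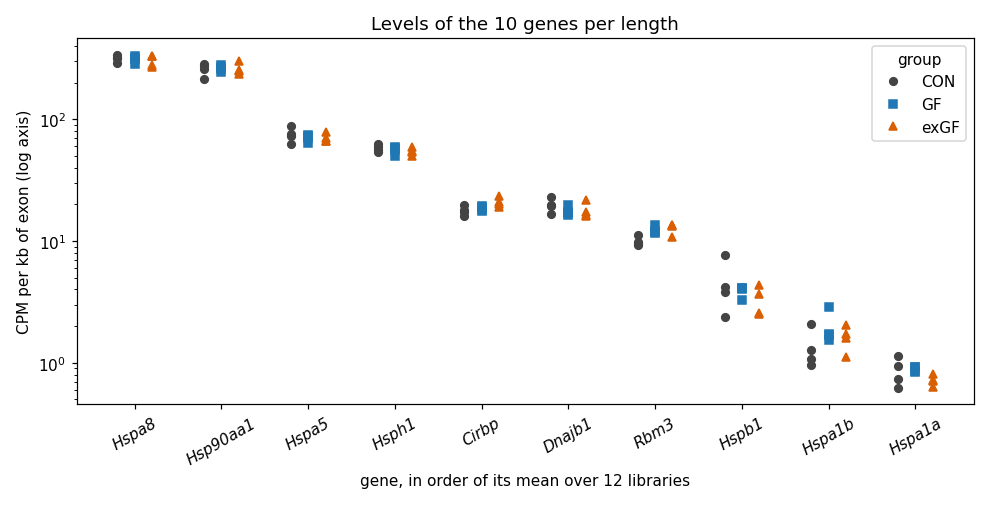
Level of each of the 10 genes in each of the 12 libraries, as CPM per kb of exon on a log axis, with genes ordered by their mean (circles CON, squares GF, triangles exGF). Hspa8 at 311 CPM per kb stood highest and Hspa1a at 0.822 lowest, and the symbols of the 3 groups overlap for most genes.

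The 10 genes were compared in each pair of groups. With p-values of edgeR's quasi-likelihood test adjusted over all genes tested (Benjamini-Hochberg), none of the 10 genes was called at an adjusted p under 0.1 in GF relative to CON, in exGF relative to CON or in GF relative to exGF. Of all genes 0.251%, 0.0696% and 0% were called in these comparisons. At an unadjusted p under 0.05 there was 1 of the 10 in GF relative to CON (Rbm3), 2 in exGF relative to CON (Rbm3 and Cirbp) and 0 in GF relative to exGF, where 8.69%, 5.33% and 6.65% of all genes were. Groups that did not overlap were seen for Rbm3 in GF relative to CON, for no gene in exGF relative to CON and for Hspa1a in GF relative to exGF, against 5%, 3.32% and 3.53% of all genes. DESeq2 fitted to GF and CON called 1 of the 10, Rbm3, where this fit called 1.32% of all genes (1.25% with a prior on fold changes). The authors' own test was DESeq2 on pairs of groups. With DESeq2 fitted to all 12 libraries and with limma-voom, 0 of the 10 were called in any comparison. GF relative to CON and exGF relative to CON share the CON libraries.

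**Figure D2:**
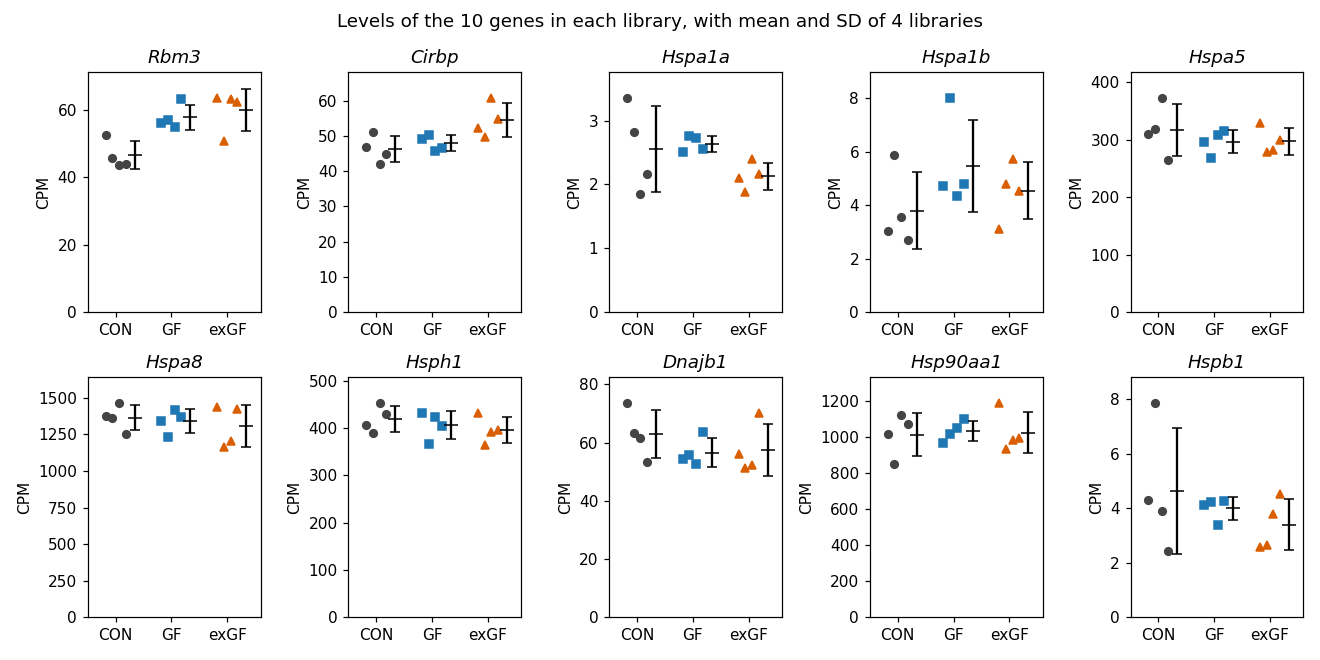
CPM of each gene in each library (circles CON, squares GF, triangles exGF), with the mean and SD of 4 libraries as a bar beside the points; each axis starts at 0. The 4 GF libraries of Rbm3, from 55.0 to 63.2 CPM, lie above all CON libraries, and the groups overlap for Hspa5, Hspa8, Hsph1, Dnajb1, Hsp90aa1 and Hspb1.

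Rbm3 (ENSMUSG00000031167, chromosome X from 8138975 to 8145880), the RNA-binding protein best known for its induction by cold, was higher in GF and in exGF than in CON. Its levels were 52.7, 45.8, 43.7 and 44.0 CPM in CON replicates 1 to 4. In GF they were 56.1, 57.0, 55.0 and 63.2 CPM, so that every GF library stood above every CON library. In exGF they were 63.7, 50.7, 63.2 and 62.3 CPM, and 3 of 4 stood above every CON library. From 46.5 ± 4.19 CPM in CON to 57.8 ± 3.68 CPM in GF (SD, n = 4 each), Rbm3 differed by 0.33 on the log2 scale (SE 0.09, 95% CI 0.13 to 0.52), a 1.25-fold level. The edgeR p was 0.00300 before and 0.247 after adjustment, and Rbm3 ranked 188 of 15542 genes by p. In DESeq2 fitted to the same libraries the adjusted p was 0.0826.

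In exGF the mean of Rbm3 was 60.0 ± 6.22 CPM, 0.35 above CON on the log2 scale (SE 0.10, 95% CI 0.14 to 0.57), a 1.28-fold level with an edgeR p of 0.00357 before and 0.578 after adjustment. Between GF and exGF the difference was -0.04 (95% CI -0.25 to 0.17, edgeR adjusted p = 0.948). The library GFR2, the exGF library inside the CON range, had 1160 counts of Rbm3. GFR2 was also the lowest exGF library of Cirbp, Hspa1a, Hspa5, Hspa8, Hsph1, Dnajb1 and Hsp90aa1, but not of Hspa1b and Hspb1. It had the highest share of pairs outside genes, 7.31% against 4.57% to 6.45% in the other 11 libraries, and the part of this in its Rbm3 value was not tested. The antisense gene Rbm3os shares 94 exon bases with Rbm3. It had 2 to 14 counts per library, 0.588% of those of Rbm3, and the counting took no account of strand.

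The summed level of clock genes stood higher in the same groups as Rbm3. Of 12 clock genes (genes that follow the time of day, taken without regard to phase), 9 lay above 0 and 3 below in GF relative to CON. The lowest log2 difference was -0.19. By edgeR 7 had an unadjusted p under 0.05, where 8.69% of all genes did. All 7 were higher, and 1 of them, Ciart, a repressor within the clock, was called (edgeR adjusted p = 0.0315). In exGF 10 lay above 0 and 2 below. There 5 were higher at that p, which 5.33% of all genes had in either direction, and 0 were called. The summed level of the 12 clock genes was 887 to 991 CPM in CON, 1024 to 1184 CPM in GF and 1038 to 1137 CPM in exGF, so that neither GF nor exGF overlapped CON. This is not particular to clock genes, as the microglial sums given above lay below CON in GF and exGF without overlap. A sum over such genes does not give a time of day. Of 8 immediate early genes, which respond to neuronal activity, 6 were higher at an unadjusted p under 0.05 in GF and 0 were called, with sums of 562 to 892 CPM in CON, 959 to 1203 CPM in GF and 698 to 1270.4 CPM in exGF. None of these genes had a count of 0 in any library. Their part in the Rbm3 values was not tested.

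Cirbp (ENSMUSG00000045193, chromosome 10 from 80165985 to 80172786), the other cold-inducible RNA-binding protein, was near CON in GF and higher in exGF. Its levels were 46.9, 51.1, 42.2 and 45.01 CPM in CON and 49.3, 50.3, 45.7 and 46.5 CPM in GF. In exGF they were 52.3, 49.8, 60.9 and 54.9 CPM, with 3 of 4 above every CON library. All GF values lay inside the CON range. The log2 difference was 0.06 in GF (95% CI -0.12 to 0.25) and 0.22 in exGF (SE 0.09, 95% CI 0.02 to 0.43), with an edgeR p in exGF of 0.0345 before and 0.888 after adjustment. GF lay 0.17 below exGF on the log2 scale (95% CI of GF relative to exGF -0.36 to 0.02, edgeR adjusted p = 0.746).

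The inducible Hsp70 genes were read with 34 to 180 counts per library, far fewer than the other chaperones except Hspb1. Hspa1a (ENSMUSG00000091971, chromosome 17 from 34969190 to 34972156) had 3.36, 2.82, 1.85 and 2.17 CPM in CON, 2.50, 2.76, 2.73 and 2.56 CPM in GF and 2.09, 1.88, 2.39 and 2.16 CPM in exGF. The GF libraries lay close together inside the CON range and all above the exGF libraries. GF relative to exGF gave 0.32 on the log2 scale (SE 0.19, 95% CI -0.08 to 0.73), with an edgeR p of 0.105 before and 0.759 after adjustment. The gene Gm20481 on the other strand covers 564 exon bases of Hspa1a in the annotation used here and had 0 counts in every library. The counting took no account of strand, so pairs within these bases could be set aside as overlapping several genes. Counts of Hspa1a can therefore be too low, and the size of this loss was not tested.

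Hspa1b (ENSMUSG00000090877, chromosome 17 from 34956436 to 34959238) had 3.03, 5.89, 3.57 and 2.70 CPM in CON and 4.71, 8.02, 4.33 and 4.796 CPM in GF. In exGF it had 3.12, 4.804, 5.72 and 4.52 CPM. Replicate 2 was the highest library in CON and in GF, and the groups overlapped. The estimate in GF relative to CON was 0.55 on the log2 scale with a wide interval (SE 0.26, 95% CI -0.01 to 1.11), an edgeR p of 0.0530 before and 0.587 after adjustment. It turned on replicate 2, with 0.30 without GF replicate 2 and 0.84 without CON replicate 2. The share of read pairs aligned to several places was 19.2% in GF replicate 2, the highest of the 12 libraries, and 12.95% to 17.8% in the others, and its part in the Hspa1b values was not tested.

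Pairs aligned to both copies, and any pairs of Hspa1a set aside for Gm20481, are missing from the sum of Hspa1a and Hspa1b. This sum does not depend on how the counted reads were split between the copies. It was 6.39, 8.71, 5.42 and 4.87 CPM in CON, 7.22, 10.8, 7.06 and 7.36 CPM in GF and 5.21, 6.68, 8.11 and 6.68 CPM in exGF, and Hspa1b gave 47.4% to 74.4% of it. All 4 GF libraries lay above 3 of the 4 CON libraries, and 1 of them lay above CON replicate 2 as well. On the log2 scale with 1 CPM added, GF lay 0.32 above CON (exact permutation test, two-sided, p = 0.200, 0.429 adjusted over 3 comparisons). Without CON replicate 2 this difference was 0.46 (exact permutation test, p = 0.0286, the smallest that 4 libraries against 3 allow), but without GF replicate 2 it was 0.20 (exact permutation test, p = 0.343) and without CON replicate 4 it was 0.22 (exact permutation test, p = 0.400). It was 0.08 for exGF relative to CON (exact permutation test, p = 0.686) and 0.24 for GF relative to exGF (exact permutation test, p = 0.286).

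The abundant chaperones gave narrow intervals around no change. Hspa8 (ENSMUSG00000015656, chromosome 9 from 40800984 to 40810087) had 1376, 1364, 1464 and 1252 CPM in CON, 1342, 1228, 1417 and 1370.4 CPM in GF and 1437, 1162, 1207 and 1424 CPM in exGF. The fold in GF relative to CON was 0.990 (95% CI 0.887 to 1.11) and in exGF 0.951 (95% CI 0.833 to 1.09). Libraries of all groups overlapped. Hsp90aa1 (ENSMUSG00000021270, chromosome 12 from 110690605 to 110702728) had 1014, 846, 1118 and 1068 CPM in CON, 963, 1016, 1048 and 1099 CPM in GF and 1187, 931, 982 and 990.2 CPM in exGF. Its fold was 1.03 in GF (95% CI 0.903 to 1.17) and 1.003 in exGF (95% CI 0.865 to 1.16).

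Hsph1 (ENSMUSG00000029657, chromosome 5 from 149614287 to 149636376) had 406, 390.2, 453 and 431 CPM in CON, 433, 366, 423 and 404 CPM in GF and 432, 365, 393 and 397 CPM in exGF. Its fold was 0.975 in GF (95% CI 0.867 to 1.10) and 0.936 in exGF (95% CI 0.831 to 1.06). Hspa5 (ENSMUSG00000026864, chromosome 2 from 34771970 to 34777547) had 310.3, 319, 373 and 265 CPM in CON, 295, 268, 307 and 314 CPM in GF and 330, 279, 282 and 299.7 CPM in exGF. CON held both the highest and the lowest library of Hspa5, and the folds were 0.944 in GF (95% CI 0.815 to 1.09) and 0.931 in exGF (95% CI 0.797 to 1.09). The smallest unadjusted edgeR p of these 4 chaperones was 0.407 in GF relative to CON (Hspa5) and 0.257 in exGF relative to CON (Hsph1).

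Dnajb1 (ENSMUSG00000005483, chromosome 8 from 83608193 to 83612653) had 73.6, 63.2, 61.6 and 53.3 CPM in CON, 54.4, 55.6, 52.5 and 63.6 CPM in GF and 55.9, 51.2, 52.3 and 70.3 CPM in exGF. In both GF and exGF 3 of 4 libraries lay below 3 of the CON libraries, and the ranges overlapped. Its log2 difference was -0.14 in GF (95% CI -0.37 to 0.08) and -0.14 in exGF (95% CI -0.41 to 0.12). Without CON replicate 1 they were -0.06 and -0.05, and over all libraries left out in turn they reached -0.21 (without CON replicate 4) and -0.24 (without GFR4). Hspb1 (ENSMUSG00000004951, chromosome 5 from 135887919 to 135889563) had 4.30, 7.85, 3.91 and 2.43 CPM in CON, 4.13, 4.23, 3.37 and 4.25 CPM in GF and 2.59, 2.66, 3.79 and 4.52 CPM in exGF. The spread in CON was wide, with replicate 2 highest, as it was for Hspa1b. The log2 difference was -0.19 in GF (95% CI -0.80 to 0.41) and -0.45 in exGF (95% CI -1.12 to 0.22), so a change of the size seen for Rbm3 could not be detected for this gene. Without CON replicate 2 these differences were 0.18 in GF and -0.06 in exGF, and without CON replicate 4 they were -0.40 and -0.66.

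**Figure D3:**
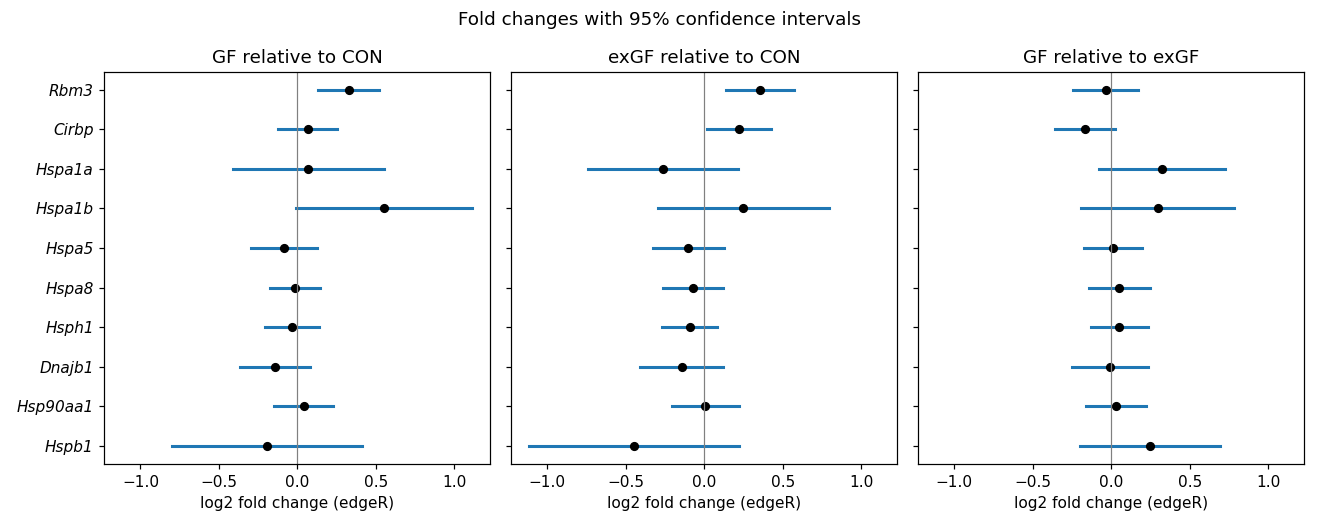
Log2 fold change (point) and 95% confidence interval (line) of each of the 10 genes by edgeR in GF relative to CON, exGF relative to CON and GF relative to exGF. Before adjustment the interval of Rbm3 lies above 0 in both comparisons with CON (0.13 to 0.52 and 0.14 to 0.57) and that of Cirbp in exGF (0.02 to 0.43), and the intervals of Hspa1a, Hspa1b and Hspb1 are the widest.

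Across the 10 genes the median log2 difference was 0.01 in GF relative to CON, where it was 0.01 over all genes, with 5 genes higher and 5 lower. In exGF relative to CON the median was -0.08 against -0.01 over all genes, with 4 higher and 6 lower, and in GF relative to exGF it was 0.04 against 0.00, with 7 higher and 3 lower.

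Further genes of each pathway were taken from lists written by role, and by edgeR no gene of any list was called in any comparison. Some genes stand in several lists. Of all genes 8.69% in GF and 5.33% in exGF relative to CON had an unadjusted p under 0.05 in either direction, and the counts below stand beside these shares. Among 7 cold-inducible RNA-binding proteins and relatives in GF, 1 was higher at an unadjusted p under 0.05 and the median log2 difference was 0.04; in exGF there were 2, both named above, and the median was 0.11. Of their relatives, Rbmx, an RNA-binding protein of the same family, differed by 0.05 in GF and 0.11 in exGF. The splicing regulators Hnrnph1 (-0.07 in GF) and Srsf5 (0.18 in exGF) were within 2 SE of 0.

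Among 25 heat-inducible genes, which are targets of HSF1, 3 were higher and 3 lower in GF at an unadjusted p under 0.05, where 8.69% of all genes were in either direction. The median of the 25 was 0.02, with 14 above 0 and 11 below. In exGF 0 were higher and 2 lower at that p, the median was -0.07, and 5 lay above 0 and 20 below. The largest difference in GF was that of Hspb8, a small heat-shock protein that works with Bag3 in autophagy. It had 8.19, 6.96, 7.07 and 5.74 CPM in CON, 7.73, 13.9, 12.9 and 12.2 CPM in GF and 7.18, 7.12, 8.50 and 12.02 CPM in exGF. GF replicate 1 alone lay within the CON range, and the log2 difference was 0.76 (SE 0.18, edgeR adjusted p = 0.144). Cryab, the small heat-shock protein abundant in oligodendrocytes, was 0.34 higher in GF (SE 0.15, edgeR adjusted p = 0.560), and the part of the oligodendrocyte markers given above was not tested.

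Ubb, a polyubiquitin gene, had 406, 498, 408 and 366 CPM in CON and 325, 338, 335 and 353 CPM in GF. Every GF library lay below every CON library, in a comparison where 5% of all genes had groups that did not overlap. The log2 difference of Ubb was -0.30 in GF (SE 0.09, edgeR adjusted p = 0.313) and -0.31 in exGF (SE 0.11, edgeR adjusted p = 0.737). Serpinh1, the collagen chaperone Hsp47, had 24.8, 27.1, 20.8 and 17.1 CPM in CON and 15.02, 13.7, 15.04 and 19.0 CPM in exGF, a log2 difference of -0.53 (SE 0.15, edgeR adjusted p = 0.591). Its difference in GF was -0.38. Meningeal markers, whose cells make collagen, were below CON in both groups (6 of 6 in each, with 5 at an unadjusted p under 0.05 in each and 2 called in GF), and their part in the Serpinh1 values was not tested.

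The machinery around Hsp70 and Hsp90 gave no member past an unadjusted p of 0.05 by edgeR in 4 lists: 14 genes of the Hsp70 and Hsp110 family (of 15 listed, 1 symbol was not matched), 9 nucleotide exchange factors, 15 genes of Hsp90 and its co-chaperones, and 10 chaperonins. In the Hsp70 family the medians were 0.03 in GF and -0.07 in exGF, and Hspa1l, a testis-rich Hsp70, had -0.51 in GF (SE 0.27), Hyou1, an ER relative of Hsph1, -0.12 in GF and Hspa12a 0.09 in exGF. Of the exchange factors, Bag3 had 0.25 and Sil1, which serves Hspa5, 0.18 in GF, while Hspbp1 had -0.11 in exGF. The Hsp90 list had a median of -0.03 in GF and -0.10 in exGF, where 1 of 15 lay above 0 and 14 below. Its co-chaperones Ptges3 (0.24) and Fkbp5 (-0.17) in GF and Stip1 (-0.17) and Cdc37 (-0.19) in exGF came nearest to the threshold. All 10 chaperonins, the folding barrels, lay below 0 in exGF with a median of -0.10, among them Cct5 (-0.17) and Hspe1 (-0.21), and in GF the median was -0.02, with Cct6a at 0.12 and Hspe1 at 0.10.

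Among 20 J-domain co-chaperones 17 lay above 0 in GF. At an unadjusted p under 0.05, which 8.69% of all genes had, 2 were higher, Dnajc27 (0.20, SE 0.09) and Dnaja2 (0.19, SE 0.09). In exGF 10 lay above 0 and 10 below, with 0 at that p, and Dnajc3, an ER co-chaperone, had -0.16 and Dnajc27 0.15. Of 8 small heat-shock proteins, Hspb8 and Cryab were higher in GF and Hspb7 was lower in exGF at an unadjusted p under 0.05 (-0.82, SE 0.30, from 6 to 26 counts per library over the 3 groups). Of 5 heat-shock transcription factors 4 passed the filter on low counts and 0 had such a p, with Hsf2 at 0.16 and Hsf4 at 0.12 in GF, Hsf4 at 0.24 in exGF and the regulator Hsbp1 at -0.11 in exGF. Of 23 genes of ER stress, 0 in GF and 1 in exGF were past it, Pdia4, a disulfide isomerase, at -0.24 in exGF (SE 0.11) and -0.20 in GF. Dnajb9 had 0.37 in GF (SE 0.20) and Sdf2l1 -0.29 in exGF (SE 0.15).

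In GF relative to exGF, 22 of the 25 heat-inducible genes lay above 0 (median 0.09 against 0.00 over all genes) and 3 were higher at an unadjusted p under 0.05, where 6.65% of all genes were. All 7 of the cold-inducible list lay below 0 in that comparison, with a median of -0.05 and 0 at that p. GF relative to exGF shares the exGF libraries with exGF relative to CON, so the signs in these comparisons are not independent.

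**Figure D4:**
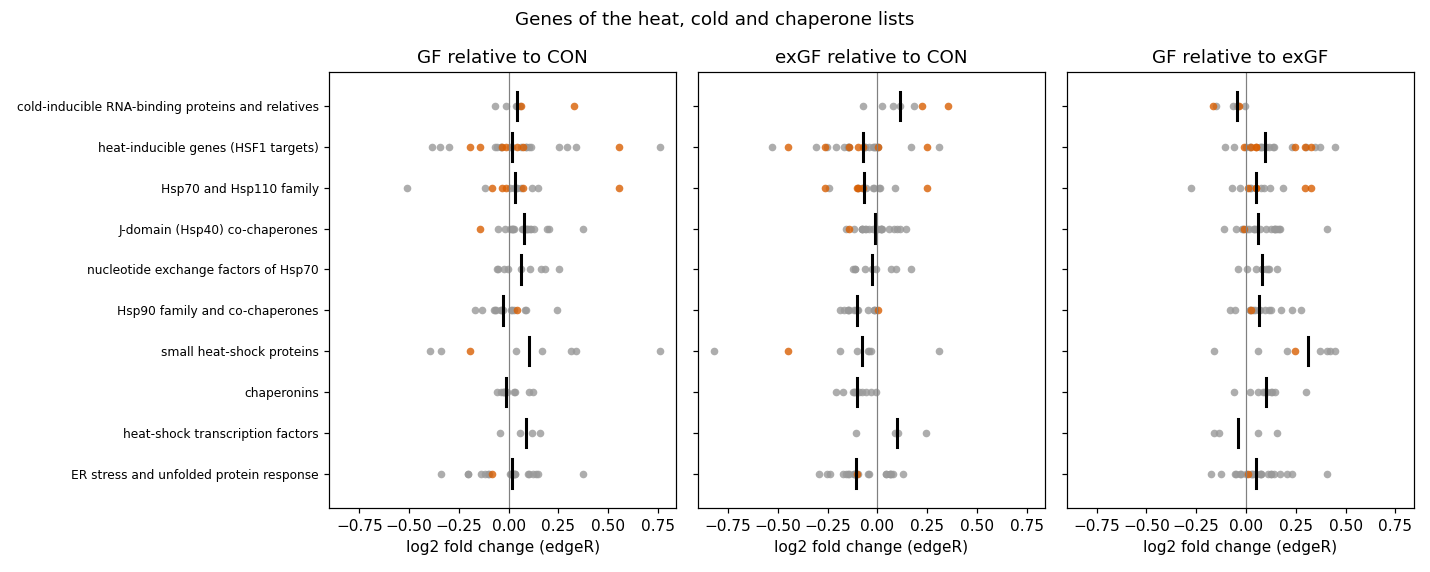
Log2 fold change by edgeR of each tested gene of 10 lists of heat, cold and chaperone genes in the 3 comparisons, with the 10 genes followed here in orange, other genes in grey and the median of each list as a black bar. The medians lie near 0 in GF relative to CON, and in exGF relative to CON all 10 chaperonins and 14 of 15 genes of the Hsp90 list lie below 0. Some genes stand in several lists, and the median over all genes in exGF relative to CON was -0.01.

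Genes that vary together between pools were sought among the 45 pairs of the 10 genes, as the Pearson correlation of log2 CPM (1 CPM added) after each group's mean was taken off, over 12 libraries and with a permutation p from all 13824 reorderings of the libraries within groups. Hspa5 and Hspa8 had r = 0.82 (permutation p = 0.000723, 0.0326 adjusted over 45 pairs) and Spearman's rho of 0.84 (permutation p = 0.00145, adjusted 0.0651). Without CON replicates 3 and 4, the libraries farthest out for Hspa5, r was 0.87. At an unadjusted p under 0.05 there were 7 pairs, and the other 6 had an adjusted permutation p of 0.239. Hspa1b and Hsph1 had r = -0.74 (permutation p = 0.0185) and rho = -0.71 (permutation p = 0.0243), and without replicate 2 of CON and of GF r was -0.50. Rbm3 and Cirbp had r = 0.42 (permutation p = 0.268) and rho = 0.44 (permutation p = 0.209), and r = 0.24 without CON replicate 1 and GFR2. All values share the library's normalization.

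The genes most like each of 5 of them between pools, by the same correlation among 11416 genes with a mean of at least 5 CPM, were picked as the highest of many and are given as a description. For Rbm3 they were Gatb (r = 0.92), Ybx1 (0.89) and Dbr1 (0.87), and for Cirbp Tnfaip1 (0.92), Acta2 (0.85) and Cavin2 (0.83). For Hspa1b they were Gm47283 (0.93), Tom1 (0.87) and Alad (0.85), for Hsph1 Bace2 (0.95), Chgb (0.92) and Bcat1 (0.92), and for Hspa5 Ociad2 (0.93), Chchd3 (0.93) and Ehd3 (0.91). No other of the 10 genes was among these 15.

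Copies elsewhere in the genome also touch the counts of other members. Of the 100-base words in its transcripts, Hspb1 shared 44.0% with other genes, all of them with the pseudogene Hsp25-ps1, which had 0 to 12 counts per library, 3.66% of those of Hspb1. Hsp90aa1 shared 38.0%, Hspa8 28.5% and Rbm3 5.36%, each mostly with a pseudogene. The pseudogenes nearest to Hsp90aa1 (Gm12346) and Hspa8 (Gm15459) had 0.116% and 0.0293% as many counts as these genes, and Rbm3-ps had 0. Cirbp, Hspa5, Hsph1 and Dnajb1 shared no such word with another gene. Pairs that aligned to both places were left out of the counts, so levels per kb can be too low for Hspb1, Hsp90aa1 and Hspa8. The same holds for Hspa1a (56.5% shared, 47.1% with Hspa1b) and Hspa1b (49.9% shared). Words were matched on both strands, so the 56.5% of Hspa1a can include Gm20481, which lies at the same place in the genome.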

How the data were processed

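Per the file headers, the deposited table holds raw counts per Ensembl gene. Per the study's methods and the submitters' processing notes, the authors trimmed read pairs of 100 bases with Trimmomatic 0.32, aligned them to GRCm38.p3 with STAR, counted them with HTSeq 0.6.0 without regard to strand (a stranded kit) and deposited the counts without normalization. Pairs outside genes (4.57% to 7.31%), overlapping several genes (1.10% to 1.32%) or aligned to several places (13.0% to 19.2%) stand in rows of their own and were left out. Symbols, exon lengths and coordinates came from GENCODE M21 (GRCm38), where 40340 of 41388 genes matched. This annotation is later than the one counted on.

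Each pair of groups was filtered by filterByExpr, normalized by TMM and tested by edgeR 4.0.16 (quasi-likelihood, Benjamini-Hochberg over all genes tested, called under 0.1) in R 4.3.3. CPM used TMM library sizes. Of 41388 genes 16032 passed the filter over 12 libraries, all 10 members among them. Between libraries of the same group the chi-square per gene averaged 9.26 to 40.2 (about 1 under counting error alone), so no library was a duplicate and pools differed by more than counting error. Animals were pooled at random within groups and their litters and cages are not given, so p-values measure the spread between these pools. The sum of Hspa1a and Hspa1b was compared by exact permutation tests, which with 4 against 4 libraries give no p under 0.0286. Promoters came from RefSeq (GRCm38.p6), and figures were drawn with matplotlib 3.10.9. Scripts were tested on simulated data.

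The members and lists were chosen with earlier results of these data known. All 10 members were named in every comparison, and from each list every called gene plus the 2 others with the smallest p in GF or exGF relative to CON. The normalization was replaced by RLE or upper quartile, the filter by none or by 10 counts in each library, and the test by robust edgeR, DESeq2 1.42.0, limma-voom (limma 3.58.1) or 1 edgeR fit to all 3 groups. Further alternatives were a block for the replicate number, calls under 0.05, a pseudocount of 0.5 CPM, Spearman correlation and each library left out. DESeq2 with a prior on fold changes was added after the data had been seen. The authors tested pairs of groups with DESeq2 1.6.2 at default parameters and an adjusted p of 0.1 or less. Of the fits used here, DESeq2 on the 2 groups, with or without the prior, is nearest to theirs. The qRT-PCR, protein and microscopy data were not analysed here.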

Additional observations from a re-analysis of the deposited data

Results flagged for a closer look

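In 3 of 30 groups of 4 libraries (10 genes in 3 groups), 1 library stood apart from the other 3 by Dixon's criterion, where chance flags about 1 in 20. Rbm3 had 50.7 CPM in the exGF library GFR2, below 62.3 to 63.7 CPM in the other exGF libraries. Without GFR2, exGF relative to CON was 0.44 on the log2 scale and the edgeR adjusted p was 0.449, the lowest of the 8 fits with 1 library left out. Hspa1b had 8.02 CPM in GF replicate 2, above 4.33 to 4.796 CPM in the other GF libraries. Hspb1 had 3.37 CPM in GF replicate 3, below 4.13 to 4.25 CPM in the others.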

How the results depend on the processing

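No alternative called any of the 10 genes except DESeq2 on the 2 groups and DESeq2 with a prior on fold changes, which each called 1 (Rbm3 in GF relative to CON, log2 0.32 with adjusted p = 0.0826 and 0.28 with adjusted p = 0.0850). These fits called 205 and 194 of 15542 genes, against 39 by edgeR. Over 11 alternatives the adjusted p of Rbm3 in GF ran from 0.0826 to 0.440, and with 1 library left out from 0.187 to 0.537 (edgeR), its log2 difference from 0.28 to 0.39. In exGF the adjusted p of Rbm3 ran from 0.107 (DESeq2 on all 12 libraries) to 0.612. With 1 library left out it ran from 0.449 to 0.999997 (edgeR), and the log2 difference from 0.32 to 0.44. Of the refits of single members 525 kept direction and side of the threshold, 2 passed it, and 23 turned direction. Hspa5 in GF relative to exGF was -0.0031 with upper-quartile normalization and -0.00081 with at least 10 counts. With 1 library left out, log2 differences in GF relative to CON ran from -0.036 to 0.089 for Hsp90aa1, -0.062 to 0.23 for Hspa1a, -0.16 to 0.00090 for Hspa5, -0.052 to 0.026 for Hspa8, -0.40 to 0.18 for Hspb1 and -0.079 to 0.013 for Hsph1. In exGF relative to CON they ran from -0.069 to 0.060 for Hsp90aa1. In GF relative to exGF they ran from -0.070 to 0.10 for Dnajb1, -0.018 to 0.12 for Hsp90aa1, -0.024 to 0.070 for Hspa5, -0.0056 to 0.11 for Hspa8 and -0.11 to 0.00061 for Rbm3. The sum of Hspa1a and Hspa1b ran from 0.20 to 0.46 in GF relative to CON and from -0.023 to 0.22 in exGF relative to CON. By Spearman correlation 0 pairs passed an adjusted p under 0.05. CON and GF replicates share numbers only: same-numbered libraries had correlations of their deviations from -0.15 to 0.091 (0 of 4 over 0.1). With the replicate block, 0 of the 10 genes were called and Rbm3 had 0.33 (edgeR adjusted p = 0.440). No paired analysis of exGF was made, because animals were pooled at random within groups and the exGF columns were not matched to samples. Hspa1a, Hspa1b and Hspb1 had 34 to 184 counts per library. In CON the CV between pools was 26.4%, 37.9% and 49.7%. The cause of these changes was not tested.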
